A study of Macaca mulatta with 10 samples.

Results

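The genes GAD1, GAD2 and ABAT encode the enzymes that make and break down GABA, and their transcripts were followed across 5 thalamic nuclei of the rhesus monkey (Macaca mulatta). Every probe set annotated to exactly 1 of these 3 symbols was taken, which gave 9 of the 22215 probe sets that are not controls, with 3 probe sets for each gene. No probe set with several symbols named a member. Each probe set was kept separate, since probe sets of 1 gene can report different parts of its transcripts. None of the 3 genes is an uptake transporter, so uptake is described from the related pathway genes that could be measured.

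GABA is the main inhibitory transmitter of the thalamus. GAD1 and GAD2 encode the 2 glutamate decarboxylases, GAD67 and GAD65, which form GABA from glutamate, and ABAT encodes GABA transaminase, the mitochondrial enzyme that degrades it. In primates, inhibitory local interneurons lie among the relay neurons of the dorsal thalamic nuclei, and the neighbouring reticular nucleus supplies a further GABA input. The cell bodies of both kinds of neuron contain GAD transcripts, whereas relay neurons use glutamate. GABA transaminase is found in neurons and astrocytes.

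The tissue was taken as micro-punches from untreated adult monkey brain and compared between nuclei named Medial Thalamus, Ventral Thalamus, Anterior Thalamus, Pulvinar and Centre Median (2 arrays each, 10 in all). Total RNA was hybridised to Affymetrix oligonucleotide arrays, whose probes were designed for human transcripts, so a low signal was not read as absence of a monkey transcript. The study asked which genes distinguish each nucleus. The labels number the arrays of each nucleus as replicates 1 and 2 without saying whether they came from separate animals, so the p-values measure only the spread between these arrays. Levels are given as log2(intensity + 1), on which a difference of 1 is a doubling, and a probe set was called at a Benjamini-Hochberg adjusted p under 0.05 in limma over all 22215 probe sets.

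The median intensity of an array was 94.2 to 100.6. The arrays differed more by replicate number than by nucleus: arrays with the same number correlated at 0.982 to 0.992 across probe sets, and the 2 arrays of a nucleus at 0.947 to 0.964. The labels do not say that the numbers pair arrays across nuclei, and the pairing was taken from the data alone. A second fit therefore took the replicate number as a block, and both fits are given where they led to different calls. The actin control, whose 3' minus 5' log2 signal rises with RNA degradation, lay between 1.15 and 1.64 on the replicate 2 arrays and between -0.09 and 1.22 on the replicate 1 arrays. XIST minus RPS4Y1, an X-linked against a Y-linked transcript, lay between 2.55 and 3.12 on all replicate 2 arrays. On the replicate 1 arrays it lay between -2.06 and -1.01 for the Anterior, Medial and Ventral Thalamus and between 1.05 and 2.05 for the Centre Median and Pulvinar, so the replicate 1 arrays did not share 1 profile. The punches carried the defining transcripts of thalamic relay neurons in every nucleus: means of TCF7L2, a thalamic transcription factor, were 12.23 to 12.70 and means of SLC17A6, the vesicular glutamate transporter of relay cells, were 10.44 to 11.20.

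GAD1, as read by probe set 205278_at, was lowest in the Medial Thalamus, at a level 2.08-fold below the mean of the other nuclei. In the Medial Thalamus it stood at 8.54 in replicate 1 and 9.58 in replicate 2. The Centre Median arrays gave 9.73 and 10.07, the Anterior Thalamus arrays 9.79 and 10.24, the Pulvinar arrays 10.27 and 10.20, and the Ventral Thalamus arrays 9.98 and 10.61, in the same order of replicates. Both Medial Thalamus arrays lay below all 8 others without overlap, which was so for 0.806% of all probe sets. As intensities, the Medial Thalamus arrays read 370 and 762, against 851 to 1562 on the other arrays.

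**Figure D1:**
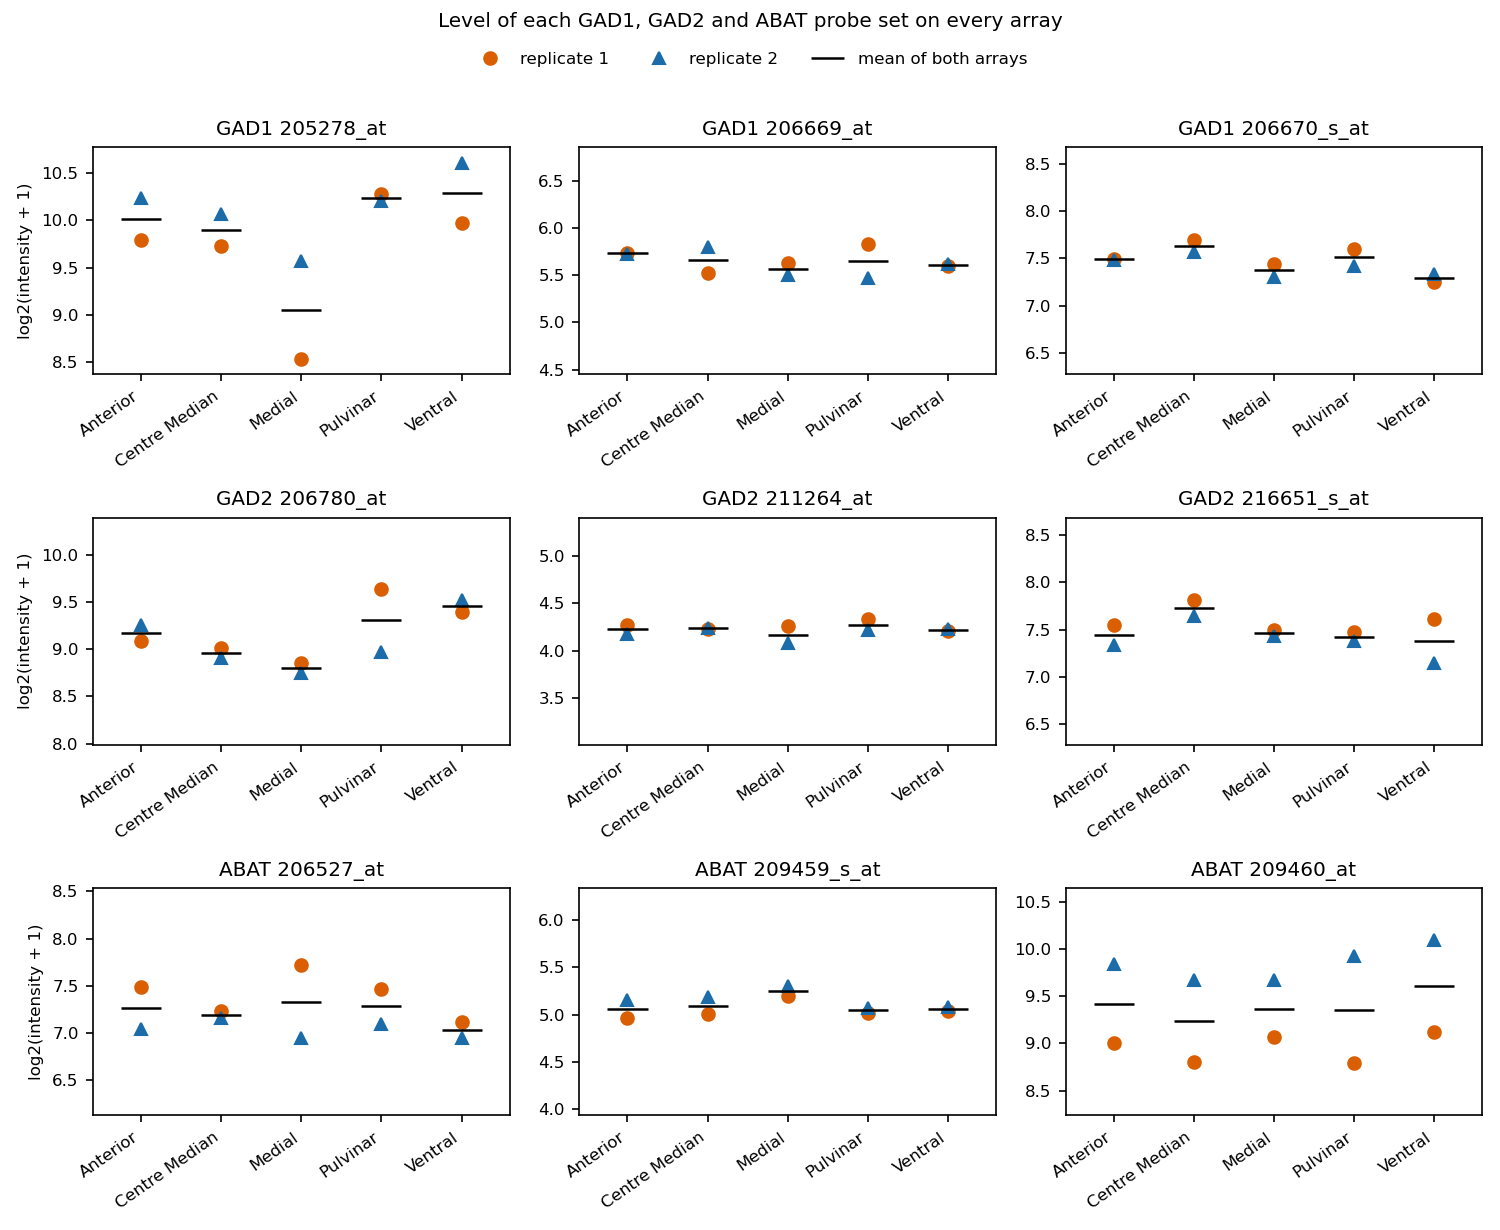
Level of each probe set, as log2(intensity + 1), on every array, by nucleus. Circles are replicate 1 arrays, triangles are replicate 2 arrays and bars are the mean of both (n = 2); all panels span the same range of 2.4 log2 units. GAD1 205278_at is lowest in the Medial Thalamus, at 8.54 and 9.58, and ABAT 209460_at separates by replicate number in every nucleus.

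The Medial Thalamus mean of GAD1 205278_at was 9.06 ± 0.73 (SD, n = 2), against 10.11 for the other 4 nuclei. The log2 difference was -1.06. Without the block this did not pass (SE 0.297, unadjusted p = 0.00756, adjusted p = 1.00 by limma), and 0 of 22215 probe sets passed in that comparison (230 at an unadjusted p under 0.05). With the replicate block it passed (SE 0.166, 95% interval -1.42 to -0.70, adjusted p = 0.0330 by limma), as 1 of 25 called probe sets, or 0.113% of those tested. It was the only member called in any of the 45 tests of a member probe set in 1 nucleus against the other 4. A difference this large in either direction was found in 0.081% of all probe sets in that comparison. In tissue punches, fewer cells that make GAD1 and less GAD1 transcript per cell cannot be told apart.

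The difference had the same sign within each replicate number, at -1.41 among the replicate 1 arrays and -0.71 among the replicate 2 arrays. Among the 3 replicate 1 arrays with low XIST minus RPS4Y1, GAD1 205278_at was 8.54 in the Medial Thalamus, 9.79 in the Anterior Thalamus and 9.98 in the Ventral Thalamus. With the replicate 1 arrays split by that measure in the block, the difference was -0.91 and passed (adjusted p = 0.0395 by limma). The blocked call was lost without Anterior Thalamus replicate 1 (0.0948) or replicate 2 (0.0791), Centre Median replicate 1 (0.104) or replicate 2 (0.0617), Medial Thalamus replicate 1 (0.297) or Ventral Thalamus replicate 2 (0.0602). The difference itself stayed between -1.41 and -0.71 over the 10 omissions, and was -0.71 without Medial Thalamus replicate 1. The call was also lost with quantile normalisation (difference -1.01, adjusted p = 0.102 by limma), without the variance trend (0.0650) and with the actin signal as a covariate (difference -0.91, 0.156). The actin signal was -0.09 on Medial Thalamus replicate 1, the lowest of the 10 arrays, and 1.34 on Medial Thalamus replicate 2, within the range of the others.

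**Figure D2:**
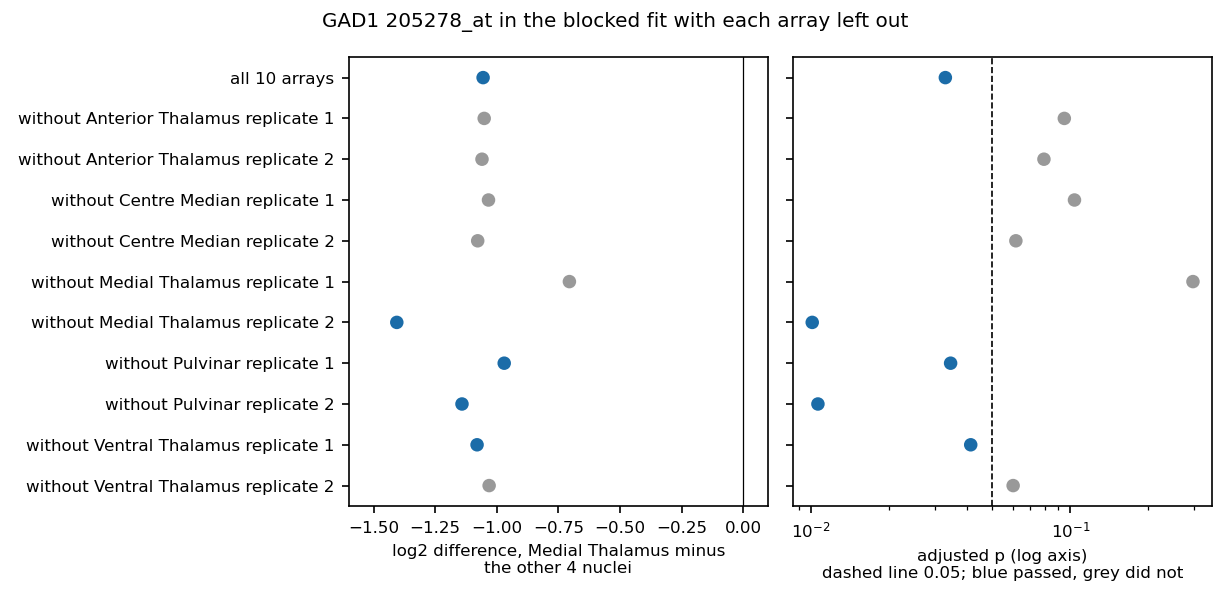
GAD1 205278_at in the Medial Thalamus minus the other 4 nuclei, in the fit with the replicate block, with all 10 arrays and with each array left out. The left panel gives the log2 difference and the right panel the adjusted p on a log axis, with the threshold of 0.05 dashed. The difference stays below 0 throughout, from -1.41 to -0.71, while the adjusted p passes in 4 of the 10 omissions.

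In descending order, the means of GAD1 205278_at were 10.29 in the Ventral Thalamus, 10.24 in the Pulvinar, 10.01 in the Anterior Thalamus, 9.90 in the Centre Median and 9.06 in the Medial Thalamus. The Ventral Thalamus minus the other nuclei was 0.49 and did not pass (adjusted p = 0.291 by limma with the block). Among the 10 pairs of nuclei 1 was called with the block and 0 without it. The called pair was the Medial Thalamus against the Ventral Thalamus, which differed by -1.24 (SE 0.210, adjusted p = 0.0197 by limma with the block), a 2.36-fold lower level. That comparison called 163 probe sets, or 0.734% of those tested. The call was lost without Medial Thalamus replicate 1 (0.122), Ventral Thalamus replicate 1 (0.0762) or Ventral Thalamus replicate 2 (0.172), and with quantile normalisation (0.0937) or the actin covariate (difference -0.90, 0.626). The Medial Thalamus differed from the Pulvinar by -1.18 (95% interval -1.64 to -0.73), which did not pass (adjusted p = 0.0693 by limma with the block). The other 9 pairs held 0 called members with the block. Those comparisons called 0% of all probe sets for the Anterior Thalamus against the Pulvinar, 0.0045% for the Anterior against the Medial Thalamus and for the Pulvinar against the Ventral Thalamus, and 0.009% for the Anterior against the Ventral Thalamus. The Centre Median comparisons called 0.0315% against the Pulvinar, 0.036% against the Medial Thalamus, 0.0495% against the Anterior Thalamus and 0.23% against the Ventral Thalamus, and the Medial Thalamus against the Pulvinar called 0.0675%. Without the block no pair called more than 0.0045% of all probe sets. No neighbouring nuclei in this order were called different. With the block, the Pulvinar minus the Ventral Thalamus was -0.05 (95% interval -0.51 to 0.40), the Anterior Thalamus minus the Pulvinar was -0.22 (-0.68 to 0.23) and the Anterior Thalamus minus the Centre Median was 0.11 (-0.34 to 0.57). The widest neighbouring step, the Centre Median minus the Medial Thalamus, was 0.85 (95% interval 0.39 to 1.30, adjusted p = 0.245 by limma with the block).

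The other GAD1 probe sets did not show this difference. Both are annotated to another GAD1 transcript record than 205278_at, which in human is a short splice form without the catalytic region. In the Medial Thalamus minus the other nuclei, 206669_at differed by -0.10 (95% interval -0.33 to 0.14) and 206670_s_at by -0.11 (-0.32 to 0.10) with the block. Neither interval overlapped that of 205278_at with the block. Without the block both did, at -0.388 to 0.191 for 206669_at and -0.385 to 0.167 for 206670_s_at, against -1.742 to -0.370 for 205278_at. Probe set 206669_at lay below the array median on all 10 arrays, between 5.48 and 5.83. Probe set 206670_s_at lay above the array median on all 10, between 7.25 and 7.70, and its order of nuclei was a different one. It was 7.70 and 7.57 in the Centre Median, the highest nucleus within each replicate number, and the other 8 arrays lay between 7.25 and 7.60. The Centre Median minus the others was 0.22 (SE 0.0981, unadjusted p = 0.0452, adjusted p = 0.854 by limma with the block). The F test across all 5 nuclei gave adjusted p = 0.0814 for 205278_at, 0.979 for 206669_at and 0.715 for 206670_s_at by limma with the block. In that test 51 probe sets passed, or 0.23%, and 205278_at ranked 109 of 22215. Without the block 0 probe sets passed (133 at an unadjusted p under 0.05).

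GAD2, read by its probe set 206780_at, followed the same order of nuclei as GAD1 205278_at, but no difference passed. It was 8.86 and 8.74 in the Medial Thalamus, 9.01 and 8.91 in the Centre Median, 9.08 and 9.25 in the Anterior Thalamus, 9.64 and 8.97 in the Pulvinar and 9.40 and 9.52 in the Ventral Thalamus, replicate 1 before replicate 2. Both Medial Thalamus arrays again lay below all 8 others. The Pulvinar arrays lay farthest apart, with replicate 1 the highest of all 10 arrays.

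The Medial Thalamus mean of GAD2 206780_at was 8.80 ± 0.08 (SD, n = 2), against 9.22 in the other nuclei, a log2 difference of -0.42 (SE 0.144, 95% interval -0.73 to -0.11). It did not pass (unadjusted p = 0.0122, adjusted p = 0.341 by limma with the block). The difference was -0.42 within the replicate 1 arrays and -0.42 within the replicate 2 arrays. The Ventral Thalamus mean was 9.46 ± 0.09 (SD, n = 2), against 9.06 in the other nuclei, and differed by 0.40 (SE 0.144, adjusted p = 0.326 by limma with the block). Among pairs, the Medial Thalamus minus the Ventral Thalamus was -0.66 (95% interval -1.05 to -0.26, adjusted p = 0.129 by limma with the block), and 0 of 10 pairs were called in either fit.

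**Figure D3:**
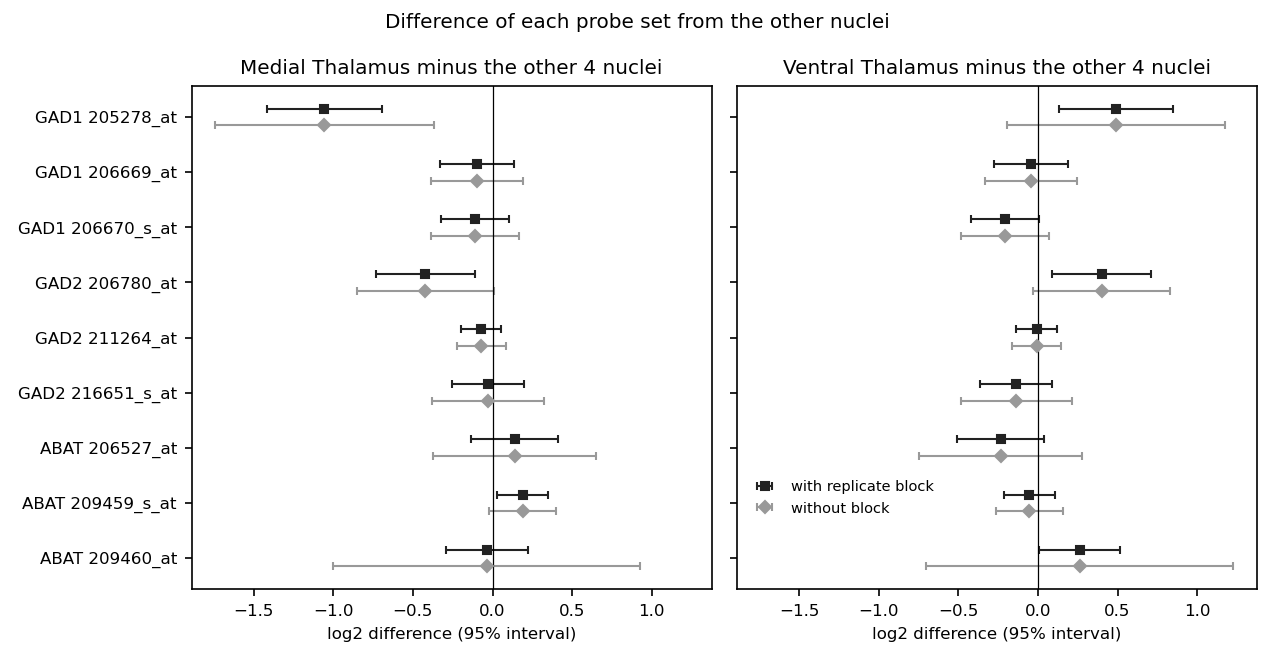
Difference of each of the 9 probe sets in the Medial Thalamus (left) and the Ventral Thalamus (right) from the mean of the other 4 nuclei, on the log2 scale with 95% intervals. Black squares are from the fit with the replicate block and grey diamonds from the fit without it. GAD1 205278_at stands apart at -1.06 in the Medial Thalamus, followed by GAD2 206780_at at -0.42, and both lie above 0 in the Ventral Thalamus, at 0.49 and 0.40.

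The likeness of GAD1 205278_at and GAD2 206780_at held within each replicate number. In the replicate 1 arrays both descended from the Pulvinar through the Ventral Thalamus, Anterior Thalamus and Centre Median to the Medial Thalamus. In the replicate 2 arrays both descended from the Ventral Thalamus through the Anterior Thalamus, Pulvinar and Centre Median to the Medial Thalamus. Of 22215 probe sets, 4 had this order in both, GAD1 205278_at itself and GAD2 206780_at included. After each replicate number was centred on its mean, Pearson's r between them was 0.825 over the 10 arrays and 0.909 over the 8 arrays outside the Medial Thalamus. Over the 27 pairs of probe sets of different genes, r over the 10 arrays ran from -0.832 to 0.825, with a median of -0.093. This GAD1 and GAD2 pair was thus the highest of them, and GAD1 205278_at with ABAT 209459_s_at was the lowest. These are descriptions, since all the readings come from the same arrays.

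**Figure D4:**
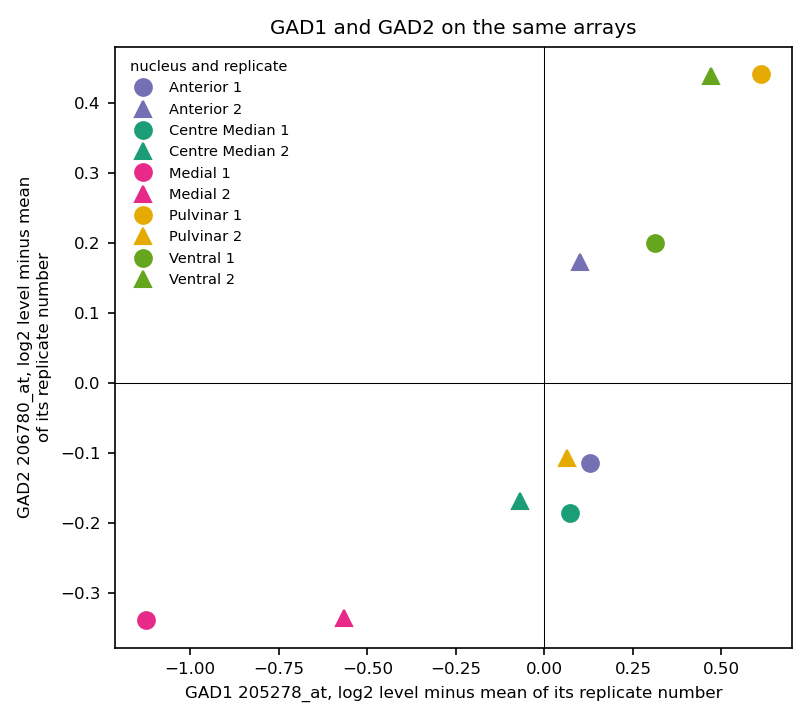
Level of GAD1 205278_at (horizontal) against GAD2 206780_at (vertical) on each of the 10 arrays, both on the log2 scale after subtraction of the mean of the 5 arrays with the same replicate number. Colours are nuclei, circles replicate 1 and triangles replicate 2. Both Medial Thalamus arrays sit at the lower left, and the Pulvinar replicate 1 and Ventral Thalamus replicate 2 arrays at the upper right (r = 0.825, n = 10).

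The remaining GAD2 probe sets did not follow 206780_at. Probe set 211264_at lay between the percentiles 1.55 and 3.99 of its array on all 10 arrays, at 4.08 to 4.33, and its nucleus means spanned 0.11. Probe set 216651_s_at was 7.81 and 7.64 in the Centre Median, and the other 8 arrays lay between 7.15 and 7.61. Both Centre Median arrays lay above all 8 others, which 0.918% of all probe sets did. The Centre Median minus the others was 0.30 (SE 0.104, unadjusted p = 0.0133, adjusted p = 0.651 by limma with the block), and that comparison called 18 probe sets, or 0.081%, with the block and 0.009% without it. In GAD2 206780_at the same comparison was -0.22 (95% interval -0.53 to 0.09). Across the 10 centred arrays 216651_s_at and 206780_at correlated at -0.564. Over the 9 pairs of probe sets of the same gene r ran from -0.564 to 0.462, with a median of 0.136, so probe sets of 1 gene did not give 1 pattern.

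ABAT, the gene for GABA transaminase, showed no called difference among nuclei on any of its probe sets in either fit. Its differences from the other nuclei lay between -0.23 and 0.26, with the lowest adjusted p at 0.433 by limma with the block. Probe set 209460_at was 9.12 and 10.09 in the Ventral Thalamus, 9.00 and 9.84 in the Anterior Thalamus, 9.07 and 9.67 in the Medial Thalamus, 8.79 and 9.93 in the Pulvinar and 8.80 and 9.67 in the Centre Median, replicate 1 before replicate 2. The Ventral Thalamus was the highest nucleus within each replicate number, but the replicates of every nucleus lay farther apart than any of the nucleus means. Its difference from the other nuclei was 0.26 (SE 0.119, unadjusted p = 0.0469, adjusted p = 0.474 by limma with the block). The Ventral Thalamus comparison called 74 probe sets with the block, or 0.333%, and 0 of the 9 members. In the Medial Thalamus 209460_at differed from the other nuclei by -0.04 (95% interval -0.29 to 0.22 with the block).

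Probe set 209459_s_at of ABAT was weak, below the array median on all 10 arrays. It was 5.20 and 5.31 in the Medial Thalamus, above all 8 other arrays, which lay between 4.97 and 5.19. In that position stood 0.918% of all probe sets. The difference was 0.19 (SE 0.0731, unadjusted p = 0.0237, adjusted p = 0.433 by limma with the block). The third ABAT probe set, 206527_at, was highest of the nuclei in the Medial Thalamus in replicate 1, at 7.72, and lowest there in replicate 2, at 6.94.

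The members also differed between replicate numbers, and probe sets of 1 gene did so in opposite directions. ABAT 209460_at was higher in replicate 2 in 5 of 5 nuclei, with means of 9.84 in replicate 2 and 8.96 in replicate 1 and a log2 difference of 0.88 (SE 0.0949, adjusted p = 1.26e-05 by limma). ABAT 206527_at was lower in replicate 2 in 5 of 5 nuclei, at 7.04 in replicate 2 and 7.40 in replicate 1, and fell by 0.37 (SE 0.101, adjusted p = 0.00818 by limma). GAD1 205278_at was higher in replicate 2 in 4 of 5 nuclei, at 10.14 in replicate 2 and 9.66 in replicate 1, a difference of 0.48 (SE 0.133, adjusted p = 0.00880 by limma). That GAD1 call was lost with quantile normalisation (0.16, adjusted p = 0.394), with the actin covariate (0.10, 0.903) and without the nucleus term (0.140). These 3 of 9 member probe sets stand against 54% of all probe sets called in that comparison, a share below that background. The replicate number held 89.8% of the variance of ABAT 209460_at and the nucleus 6.65%. For GAD1 205278_at the nucleus held 68.8% and the replicate number 19.8%, and for GAD2 206780_at the shares were 68.4% and 4.30%. The nucleus also held 78.5% for GAD1 206670_s_at and 58.3% for ABAT 209459_s_at, and none of these probe sets passed the F test in either fit. With 5 nuclei against replicates 1 and 2, the nucleus share tends to be the larger even without a difference. With the actin signal as a covariate 1 of the 9 was called between replicate numbers, ABAT 209460_at at 1.18 (adjusted p = 0.0359 by limma). Probe set 206527_at then differed by 0.24 in the opposite direction and did not pass. The actin signal moved with the replicate number, and its part in these differences was not tested further.

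**Figure D5:**
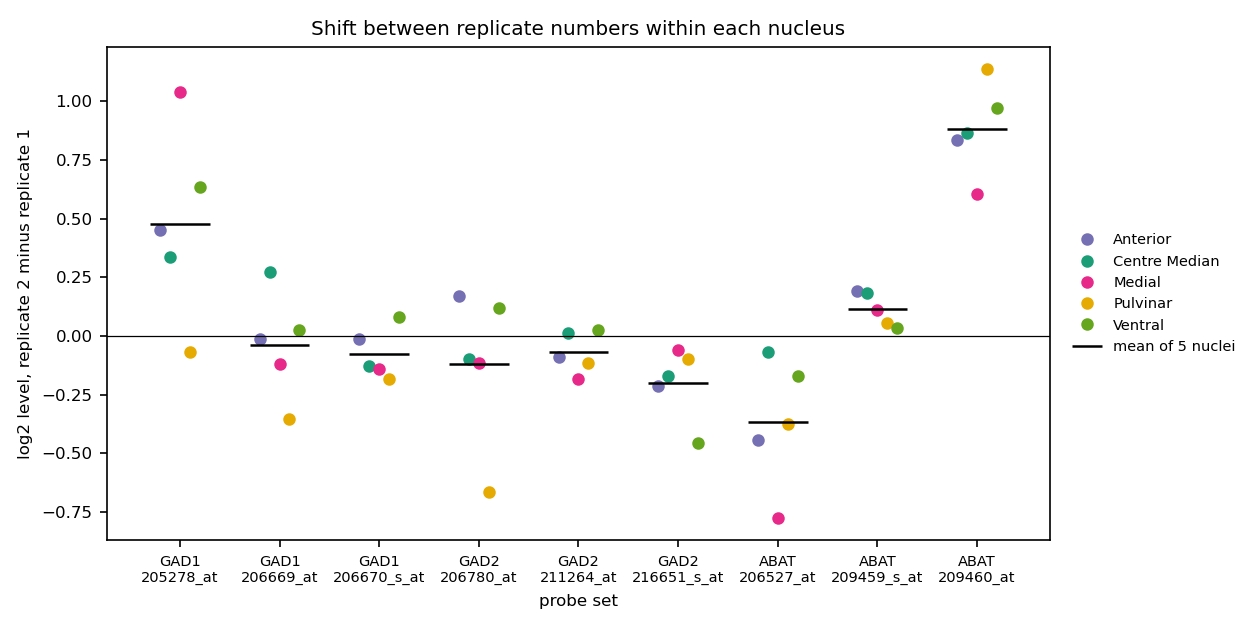
Replicate 2 minus replicate 1 on the log2 scale within each nucleus, for each probe set. Points are the 5 nuclei and bars their mean. ABAT 209460_at lies above 0 in all 5 nuclei with a mean of 0.88, and ABAT 206527_at lies below 0 in all 5 with a mean of -0.37.

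Over all 9 probe sets and 5 nuclei, the difference from the other nuclei had the same sign in both replicate numbers in 26 of 45 combinations, or 57.8%, against 51.8% over all probe sets. In the Medial Thalamus 7 of the 9 differences were below 0, with a median of -0.07, beside a median of 0.00 over all probe sets. Above 0 lay 2 of the 9, beside 50.04% of all probe sets. The 9 probe sets read only 3 genes, and whether their share differs from that of all probe sets was not tested. GAD1 205278_at and GAD2 206780_at, the brightest probe sets of their genes, were the 2 members with both Medial Thalamus arrays below all others. That position was held by 0.806% of all probe sets.

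Summed marker levels of several cell types in the Medial Thalamus lay outside the range of the other nuclei, although 1 marker gene passed the test there. These sums are of intensities, so the brightest genes of a list weigh most, and each marker gene was read by 1 probe set. PVALB and SPP1, which are strongly expressed in reticular nucleus neurons, had Medial Thalamus means of 8.60 and 8.90. Their Anterior Thalamus means were next lowest, at 8.78 and 9.32, and their highest means were 10.93 and 10.38 in the Ventral Thalamus. Which cells of the punches these 2 transcripts came from was not tested. The 6 reticular nucleus markers summed to intensities of 741 and 2231 on the Medial Thalamus arrays, replicate 1 before replicate 2, below the other nuclei at 952 to 3655 in replicate 1 and 2810 to 7520 in replicate 2. In the Medial Thalamus 5 of these 6 lay lower and 0 were called with the block (adjusted p = 0.192 for PVALB and SPP1 by limma). The other 4 (SIX3, ECEL1, ISL1 and MEIS2) had means over all arrays of 4.93 to 7.50. MEIS2 differed by -0.83 in the Medial Thalamus (adjusted p = 0.0759 by limma with the block). SIX3, ECEL1 and ISL1 differed there by 0.02, -0.11 and -0.02.

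The list of 15 transcription factors and peptides of local interneurons and other GABA neurons, of which 13 were measured, had no common direction in the Medial Thalamus. Of the 13, 5 lay lower, the median difference was 0.01 and 0 were called with the block. In mean level 9 of the 13 lay above the array median, and VIP and LHX1 stood at 4.16 and 5.52. A fall in the weaker genes might therefore not show. The sums were 1848 and 1368 in the Medial Thalamus, against 1676 to 2427 in replicate 1 and 1445 to 1643 in replicate 2 of the other nuclei. SOX14, a transcription factor of midbrain-derived thalamic interneurons in mouse, had nucleus means of 4.47 to 4.84. With a mean over all arrays of 4.73, between those of VIP and LHX1, it was among these weaker genes.

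Relay neurons and glia make up most of the tissue around these cells. The 5 relay neuron markers summed to 6584 and 9422 there, below the other nuclei at 6735 to 7964 in replicate 1 and 9882 to 11604 in replicate 2, with 3 of the 5 lower and a median difference of -0.07. The 6 measured oligodendrocyte markers summed to 7436 and 10963, below 8074 to 15217 and 13211 to 18673, and all 6 lay lower, with 0 called. The 7 astrocyte markers summed to 7431 and 13483, above 5543 to 7310 and 9004 to 12300. Of these 7, 1 lay lower, the median difference was 0.11 and 0 were called with the block. GFAP differed most, by 1.12 (adjusted p = 0.0629 by limma with the block). SLC1A2, the astrocyte marker with the highest mean level, differed by -0.33. Among the 8 lists 1 gene was called in the Medial Thalamus, CALB2 of the relay neuron list, a calcium-binding protein of some thalamic neurons. It was higher by 1.10 (adjusted p = 0.0213 by limma with the block), while without the block 0 probe sets passed in that comparison. The 5 measured striatal markers summed to 501 and 515, against 420 to 544 in replicate 1 and 356 to 483 in replicate 2, and the sums of microglial and endothelial markers lay within the range of the other nuclei. No marker was at 0 on any array, but no probe set was, since the lowest intensity of an array was 9.49 or more. It does not show that every marker was detected. The part of cell makeup in the GAD1 and GAD2 differences was not tested.

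Among other genes of GABA handling, 9 of 16 listed genes had probe sets with 1 symbol, 14 in all, and 0 of these 14 passed the F test in either fit (0 at an unadjusted p under 0.05 without the block and 3 with it). For comparison, the blocked F test put 8.59% of all 22215 probe sets below that unadjusted limit and called 0.23%. The unblocked F test put 0.599% below it and called 0. Whether 3 of 14 exceeds the share over all probe sets was not tested. Between replicate numbers 6 of the 14 were called higher and 2 lower in replicate 2, beside 54% of all probe sets called in either direction. The other 7 listed genes were not analysed here. SLC38A2, a neuronal and glial glutamine transporter, had its lowest means in the Medial Thalamus on both of its probe sets. Probe set 220924_s_at was 8.11 and 8.76 in the Medial Thalamus, against 8.60 to 9.18 on the other arrays, which overlap. Its Medial Thalamus difference was -0.43 (SE 0.116, adjusted p = 0.214 by limma with the block), and that of 218041_x_at was -0.39 (SE 0.127, adjusted p = 0.309). Their F tests gave adjusted p of 0.270 and 0.428 by limma with the block.

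SLC6A11, the GABA transporter GAT3 of astrocytes, lay between 6.71 and 7.93, highest in the Pulvinar and Medial Thalamus replicate 1 arrays at 7.93 and 7.83 (adjusted p = 0.629 by limma F test with the block). SLC6A12 and SLC6A13, GABA transporters best known from liver and kidney, had nucleus means of 7.23 to 7.29 and 7.91 to 8.18. ALDH5A1, succinic semialdehyde dehydrogenase, acts next after GABA transaminase. Its probe set 203608_at was higher in replicate 2 by 1.10 (adjusted p = 1.42e-06 by limma) and its nucleus means ran from 6.99 in the Medial Thalamus to 7.32 in the Ventral Thalamus (adjusted p = 0.709 by limma F test with the block). Its other probe set, 203609_s_at, differed by -0.07 between replicate numbers (adjusted p = 0.492 by limma). AKR7A2, an aldehyde reductase that acts on succinic semialdehyde, had means of 7.31 in the Medial Thalamus and 7.32 in the Ventral Thalamus on 214259_s_at, against 6.97 to 7.15 in the other nuclei (adjusted p = 0.547 by limma F test with the block). GLUL, glutamine synthetase of astrocytes, had 3 probe sets with adjusted p of 0.742 to 0.951 by the same test.

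The probe sets most like each member across the 10 centred arrays were ranked among 9800 probe sets with 1 symbol of other genes, at or above the median level. For GAD1 205278_at these were MAPKAPK2 (r = 0.958), AP5M1 (0.954), CCNI (0.952), MOB4 (0.948) and UGP2 (0.945). Outside the Medial Thalamus, over 8 arrays, these values were 0.925, 0.820, 0.656, 0.760 and 0.742 in the same order. For GAD2 206780_at they were SEPTIN6 (0.966), SLC20A1 (0.950), SNN (0.940), BNIP3 (0.935) and HSPA12A (0.933). For ABAT 209460_at they were PSMA1 (0.975), R3HCC1 (0.964), BBLN (0.951), SLCO3A1 (0.950) and METTL22 (0.939). Each set of 5 was the highest among all those correlations over few arrays that share RNA and normalisation, and no member was among the 5 of another.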

How the data were processed

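The deposited values are normalised probe set intensities that the authors made with RMA, per the submitters' processing notes, from Affymetrix arrays; the version, genome build and whether all 10 arrays were normalised together are not given in the sources used here. They are on a linear scale, so log2(value + 1) was used. The lowest intensity was 12.0 to 12.3 on replicate 1 arrays and 9.49 to 9.55 on replicate 2 arrays. Of 22283 probe sets 68 were controls, 2107 others were unlisted in the annotation and 1043 had several symbols; all 22215 that are not controls were fitted. Arrays have no count depth; with 2 for each nucleus, their number limits the precision.

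A model with 1 coefficient per nucleus was fitted with limma 3.58.1 (R 4.3.3; eBayes with trend), and each comparison (an F test, each nucleus against the other 4 and 10 pairs) was adjusted over all probe sets. Differences between replicate numbers were tested with nucleus as the other term. Differences between replicate 2 and replicate 1 correlated between nuclei at 0.750 to 0.828 for all 10 pairs of nuclei, so the numbers were taken as paired from the data, and a fit with the replicate block was made. Residual degrees of freedom were 5 without and 4 with the block. The script was tested on simulated data. Members, lists and rules were chosen with earlier results of these data known. Named pathway genes were those at an unadjusted p under 0.05 in either F test, plus 4 fixed genes where measured; GLUL, SLC6A12, SLC6A13 and the marker genes were named after their values were seen. Genome coordinates and sequences are not used here. Figures were drawn with matplotlib 3.10.9. Other settings were quantile normalisation, a pseudocount of 16, a filter at the median level, 1 probe set a gene, no variance trend, a block split by XIST and RPS4Y1, the actin covariate and leaving out each array.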

Additional observations from a re-analysis of the deposited data

How the results depend on the processing

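Without the replicate block, 0 member probe sets were called among nuclei under any setting run, also with each array left out. With the replicate block, 1 member (GAD1 205278_at) was called in the Medial Thalamus against the other 4 nuclei and 1 pair was called. With both the block and another setting, these counts were 1 and 1 with the XIST and RPS4Y1 split (where the F test also called 1 member), with a pseudocount of 16, with probe sets at or above the median alone and with 1 probe set a gene. They were 0 and 1 without the variance trend, and 0 and 0 with quantile normalisation or the actin covariate. The block with a pseudocount, filter, probe set or trend setting was chosen after seeing the data. With each array left out in the blocked fit, the counts of members ranged from 0 to 1 in the F test, from 0 to 1 in the Medial Thalamus and from 0 to 3 in the pairs. The block changed no other call of a member or of the pathway list; among the marker genes it added CALB2 in the Medial Thalamus. Between replicate numbers, 3 members were called, and 3 to 4 with each array left out, 5 with quantile normalisation (GAD1 205278_at no longer among them), 2 without the nucleus term (GAD1 again lost) and 1 with the actin covariate, where ABAT 206527_at reversed to 0.24. The difference of ABAT 209460_at in the Ventral Thalamus, not called in either fit, ranged from -0.22 to 0.75 with each array left out of the unblocked fit, and it reversed without Ventral Thalamus replicate 2. The split by XIST and RPS4Y1 was not run for the replicate numbers. The causes of these changes were not tested. With 2 arrays a nucleus and signal below the array median for 3 of the 9 probe sets, small differences were not detectable here.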
